A study of Homo sapiens with 4 samples.

Results

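The solute carriers described here are membrane proteins that move amino acids, ions and small organic solutes, most of them across the plasma membrane. They were taken as all genes with a symbol of the SLC1, SLC3, SLC4, SLC5, SLC6, SLC7, SLC8, SLC9, SLC12, SLC20, SLC29, SLC36, SLC38, SLC43 and SLC44 families, leaving out SLC7A11. This gave 112 of the 25133 genes with a symbol, and 47 of the 112 had a mean of 1 FPKM or more over the 4 libraries. FPKM divides the fragments of a gene by its length and by the size of the library. RNA came from MDA-MB-231, an established human breast cancer cell line, 2 libraries of cells infected with lentivirus carrying a hairpin against JARID2 (shJARID2, genotype JARID2 knockdown) and 2 of cells infected with a scrambled hairpin (shSCR, genotype WT). Whether replicate libraries stem from separate cultures, and how many hairpins targeted JARID2, is not in the labels, so a p-value here reflects the spread of these libraries alone, which may be technical. In bulk RNA, fewer cells with a transcript and less of it per cell cannot be told apart. The families are wider than their usual summary as amino acid and ion carriers, since they also hold carriers of nucleosides, choline, inositol and vitamins. Of the 112 carriers, 91 are placed at the plasma membrane by textbook knowledge, and others work in lysosomes (SLC38A9, SLC29A3) or the Golgi (SLC9A7, SLC9A8).

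Many of these carriers are powered by the sodium gradient that the sodium-potassium pump maintains, which drives uptake of glutamine, phosphate, taurine or inositol. Others exchange one solute for another, as when SLC7A5 exports an amino acid to import leucine while bound to the heavy chain SLC3A2. Bicarbonate and sodium/proton carriers (SLC4 and SLC9) set the pH of the cytosol, and the cation-chloride carriers (SLC12) set cell volume and chloride. Cancer cells are known to draw on glutamine and leucine uptake through SLC1A5 and SLC7A5.

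JARID2, an accessory subunit of the Polycomb complex that methylates histone H3, was measured at 3.88 and 3.91 FPKM in the shJARID2 libraries, against 10.8 and 10.8 FPKM in the shSCR libraries. The knockdown libraries were thus both lower, by a log2 fold change of -1.27 (SE 0.0594, adjusted p = 0.0014, limma). Low FPKM values fell on whole multiples of 1 read, which gave depths of about 12900000 and 12800000 reads in shJARID2 and about 15500000 and 16200000 in shSCR. All 6 marker genes of this cell line passed 1 FPKM, although VIM, which encodes vimentin, was listed at only 2.43 FPKM in shJARID2 and 3.87 FPKM in shSCR. The markers of the line also differed between groups, single genes in both directions. Their summed FPKM was 531 and 533 in shJARID2, against 656 and 680 in shSCR. None of the 11 immune, endothelial and fibroblast markers reached a mean of 1 FPKM. Of 6 luminal markers, ERBB2 and FOXA1 did, and the summed FPKM of these 6 was 8.90 and 10.2 in shJARID2, against 19.1 and 19.0 in shSCR. Most of this sum was ERBB2, with means of 7.08 FPKM in shJARID2 and 15.6 FPKM in shSCR. ERBB2 was lower with and without the correction for GC content described below (log2 fold change -1.04, GC-corrected -0.44). FOXA1 was also lower in shJARID2 as measured (-0.41), but did not pass after that correction (0.17, adjusted p = 0.21, limma). ESR1 and PGR were higher in shJARID2 at values far under 1 FPKM, and GATA3 and CDH1 overlapped between groups. The part of these differences in the carriers' values was not tested.

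Carriers moved in both directions, most by less than a fitted 2-fold. Each change is the difference of mean log2(FPKM + 1), shJARID2 minus shSCR, and is given as a log2 fold change; the added 1 shrinks the change of weakly expressed genes. Calls required an adjusted p under 0.05 (limma, Benjamini-Hochberg over 12455 genes). Of the 47 carriers tested, 15 rose (31.9%), 20 fell (42.6%) and 12 did not pass, so 74.5% were called. Over all genes tested, 28.0% rose and 31.6% fell (59.7% called in all). Their median log2 fold change was -0.15, against -0.02 over all tested genes. No carrier rose by a fitted 2-fold, and 3 fell by that much or more, namely SLC4A2, SLC4A3 and SLC6A9. The values of the groups did not overlap for 44 of the 47 carriers, which was so for 82.9% of all tested genes.

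The direction of a carrier followed the GC content of its transcripts, as it did across the transcriptome. The 20 carriers that fell had transcript GC contents from 51.1% to 63.2% (median 59.1%). Of the 15 that rose, 13 lay between 37.2% and 46.5%, and only SLC3A2 (55.2%) and SLC43A3 (55.4%) lay above 50%. Spearman's rho between fold change and GC content was -0.82 across the 47 carriers, which share the same 4 libraries, and -0.67 across the 12057 tested genes with a GC value. When the GC trend was subtracted from each library, 11 carriers were called higher (23.4%), 7 lower (14.9%) and 29 were not called, so 38.3% were called. The background after this correction was 22.7% higher and 21.4% lower (44.2% called in all), and the median was 0.11 for the carriers and 0.00 for all genes. Calls were made in the same direction by both fits for 12 carriers. The 7 that were higher in both included SLC3A2, SLC4A7, SLC20A1, SLC38A2, SLC38A4 and SLC43A3, and the 5 that were lower in both were SLC1A5, SLC4A2, SLC6A9, SLC20A2 and SLC29A2. SLC7A5 and SLC4A11 were lower as measured but higher after the correction. GC-corrected log2 fold changes are therefore given beside the measured ones.

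**Figure D1:**
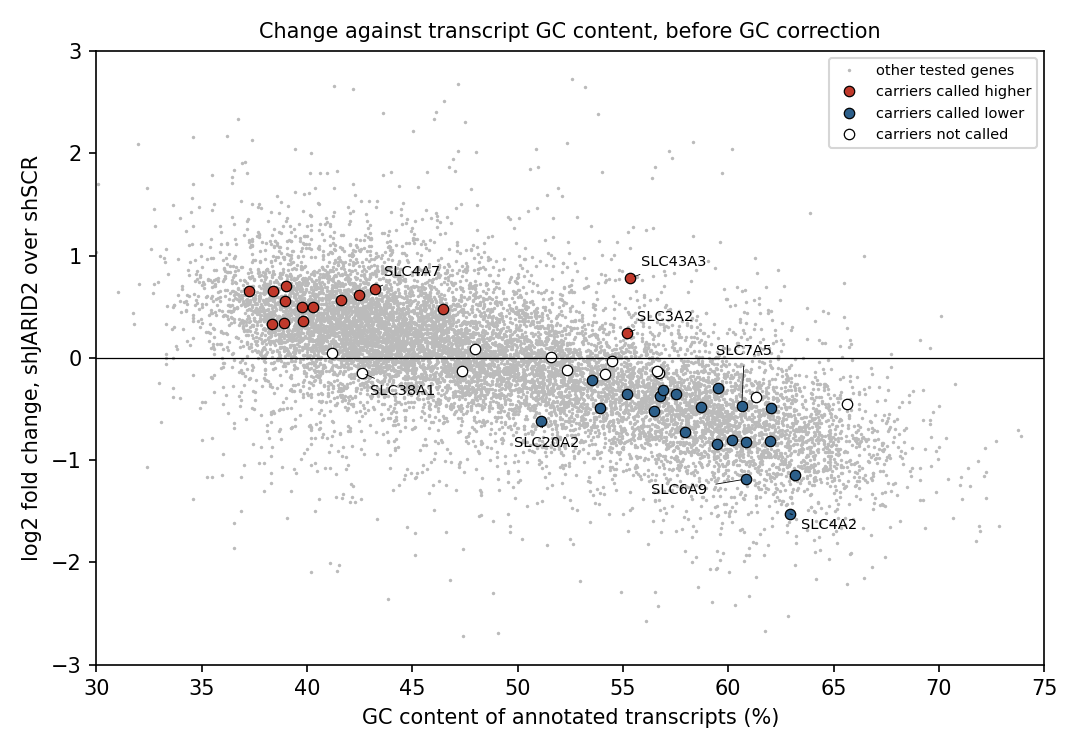
Log2 fold change (shJARID2 over shSCR) of each tested gene against the GC content of its annotated transcripts in percent; grey points are the other tested genes, of which 14 lie outside the axes, and large points are the 47 carriers, coloured by call. All 20 carriers called lower lie above 50% GC, and of the 15 called higher only SLC3A2 and SLC43A3 do.

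Carrier transcript was unevenly spread over the genes. The 5 with the highest mean (SLC20A1, SLC7A5, SLC38A2, SLC29A1 and SLC38A1) made up 49.8% and 49.6% of the summed FPKM of all 112 in the shJARID2 libraries, against 46.0% and 45.6% in the shSCR libraries. The 10 highest made up 70.2% and 70.2% in shJARID2, against 66.7% and 66.0% in shSCR. SLC20A1, a sodium-driven phosphate importer, ranked first in both groups and SLC7A5, the leucine exchanger LAT1, second. Below them the order differed: SLC38A2 ranked 3 in shJARID2 and 5 in shSCR, and SLC4A7 ranked 7 in shJARID2 and 11 in shSCR. In shJARID2, SLC29A1 (49.0 ± 0.581 FPKM) and SLC3A2 (47.6 ± 1.73 FPKM) lay within their spread of each other. In shSCR, SLC38A1 (46.5 ± 2.50 FPKM), SLC38A2 (46.2 ± 0.907 FPKM) and SLC44A2 (45.3 ± 0.735 FPKM) did (SD, n = 2 libraries). Annotated pseudogene copies exist for SLC20A1 (3), SLC7A5 (2), SLC29A4 (2), SLC6A6 (1) and SLC9A7 (1), and how reads shared with such copies were counted is not known here. The sum over all 112 carriers was 864 and 882 FPKM in shJARID2, against 885 and 886 FPKM in shSCR.

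**Figure D2:**
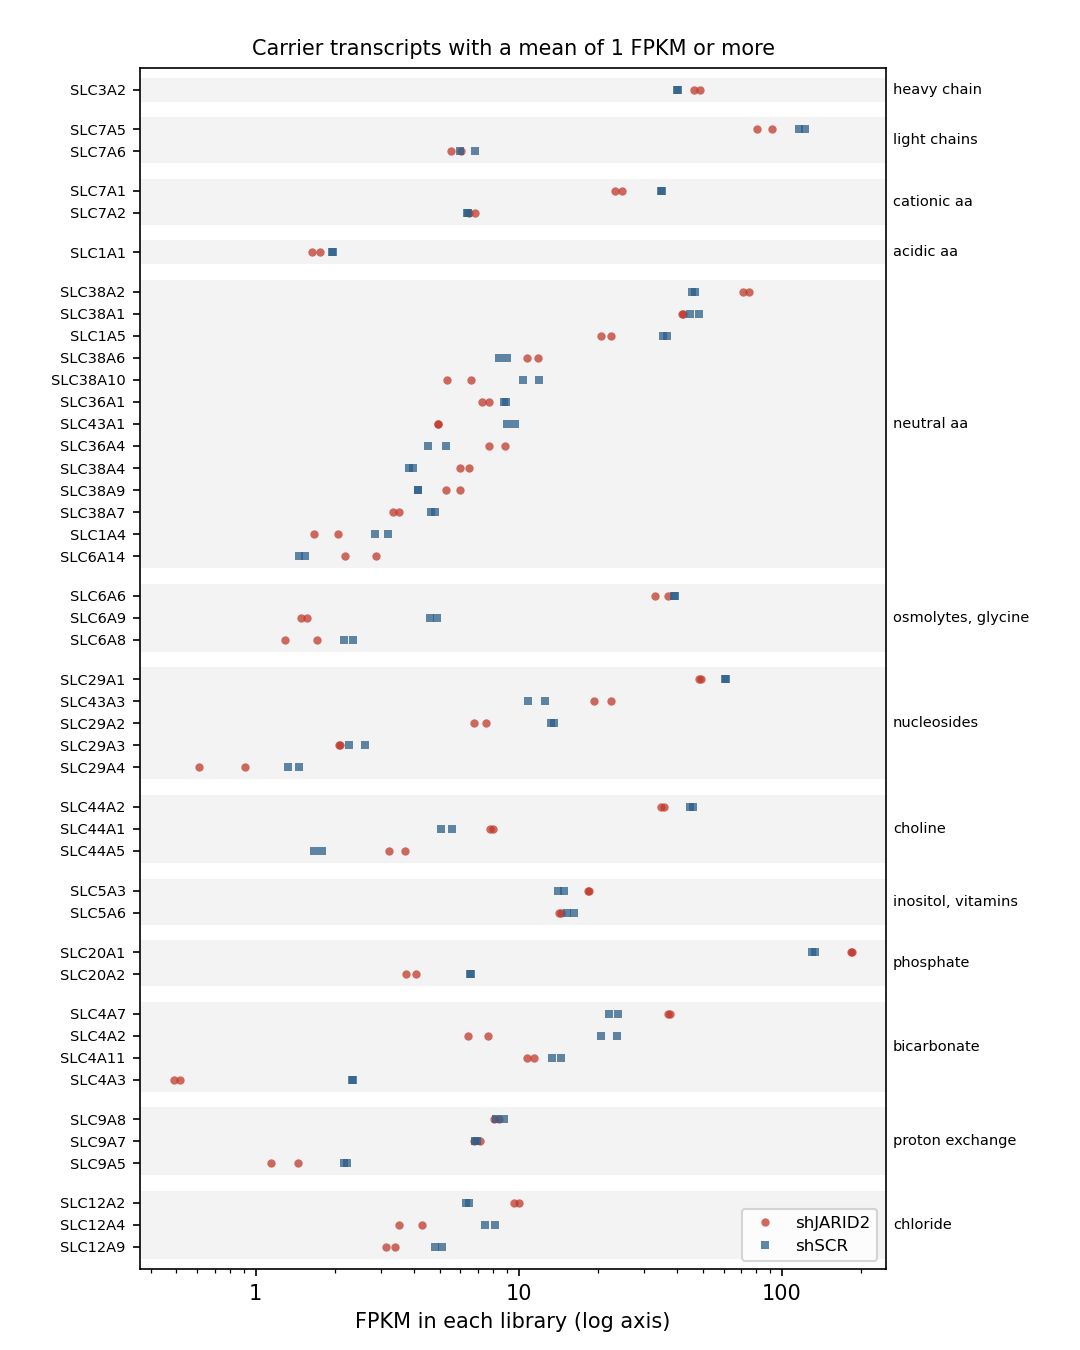
FPKM of 44 of the 47 tested carriers in each library, on a log axis, grouped by substrate (aa, amino acids), with red circles for the 2 shJARID2 libraries and blue squares for the 2 shSCR libraries. The groups are separate for 41 carriers and overlap for SLC7A6, SLC9A7 and SLC9A8.

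Of the heteromeric amino acid exchangers, the heavy chain SLC3A2 and 1 light chain, SLC7A5, moved apart as measured. SLC3A2 (chr11:62856102-62888875, + strand), the heavy chain that brings SLC7 light chains to the cell surface, was at 46.3 and 48.8 FPKM in shJARID2, against 39.9 and 40.4 FPKM in shSCR. Both knockdown libraries were higher, and it rose by 0.24 (SE 0.0458, adjusted p = 0.012, limma) and by 0.58 after GC correction (adjusted p = 0.0018). SLC7A5, which exchanges leucine and other large neutral amino acids, was at 80.6 and 91.8 FPKM in shJARID2, against 116 and 123 FPKM in shSCR. It fell by 0.47 on the log2 scale (adjusted p = 0.0079), but was 0.16 higher after GC correction (adjusted p = 0.045), so its direction depended on that step. Without shSCR replicate 2, neither passed as measured (0.23 to 0.25 for SLC3A2 without either shSCR library, -0.43 for SLC7A5). The ratio of SLC3A2 to SLC7A5 was 0.575 and 0.531 in shJARID2, against 0.342 and 0.330 in shSCR, and their fold changes differed by 0.71 as measured and 0.42 after GC correction. SLC7A6, which exchanges cationic for neutral amino acids, overlapped between groups, with 6.05 and 5.53 FPKM in shJARID2 and 6.82 and 5.98 FPKM in shSCR (-0.12, adjusted p = 0.30). Exons of SLC7A6OS and another gene on the other strand cover 55.6% of its exons, so its value is uncertain. The other light chains of this set, SLC7A7, SLC7A8, SLC7A9, SLC7A10 and SLC7A13, were under 1 FPKM. SLC7A11 was left out of the set, so the SLC7 partners of SLC3A2 are not covered in full.

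Of the carriers of cationic amino acids, SLC7A1, the main arginine importer of many cells, was at 23.3 and 24.6 FPKM in shJARID2, against 34.7 and 35.0 FPKM in shSCR. It fell by 0.52 (adjusted p = 0.0020), and did not pass after GC correction (-0.11, adjusted p = 0.065). SLC7A2, a second arginine importer, was close between groups, with 6.83 and 6.47 FPKM in shJARID2 and 6.42 and 6.35 FPKM in shSCR (0.05, adjusted p = 0.53). After GC correction it was called lower (-0.26, adjusted p = 0.022). Only SLC1A1, which takes up glutamate and cysteine, passed the filter among the acidic amino acid carriers, with 1.64 and 1.76 FPKM in shJARID2 and 1.97 and 1.95 FPKM in shSCR (-0.13, adjusted p = 0.32).

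Among 13 carriers of neutral amino acids, 6 rose and 6 fell as measured, while the GC-corrected counts were 2 higher and 2 lower. Shares over all tested genes were 28.0% higher and 31.6% lower as measured, and 22.7% higher and 21.4% lower after GC correction. SLC38A2 (chr12:46358189-46372867, - strand), a sodium-coupled importer of small neutral amino acids known to be induced by amino acid shortage, was at 75.2 and 71.3 FPKM in shJARID2, against 46.8 and 45.6 FPKM in shSCR. Both knockdown libraries were well above both controls, and it rose by 0.65 (SE 0.0472, adjusted p = 0.0015) and by 0.24 after GC correction. SLC38A1, its close relative and a glutamine importer, was at 41.7 and 42.2 FPKM in shJARID2, against 48.3 and 44.8 FPKM in shSCR. It did not pass as measured (-0.15, adjusted p = 0.072) and was called lower after GC correction (-0.43, adjusted p = 0.0033). The ratio of SLC38A2 to SLC38A1 was 1.80 and 1.69 in shJARID2, against 0.970 and 1.02 in shSCR, so the relatives were about equal in control cells and unequal in knockdown cells. SLC38A4 rose too, with 6.46 and 5.99 FPKM in shJARID2, against 3.95 and 3.82 FPKM in shSCR (0.56, GC-corrected 0.26, adjusted p = 0.034, or 0.064 with the replicate block).

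The glutamine exchanger SLC1A5 (ASCT2) moved the other way. Its gene lies at chr19:46774883-46788594 on the - strand. It was at 20.5 and 22.3 FPKM in shJARID2, against 36.7 and 35.3 FPKM in shSCR. It fell by 0.72 (SE 0.0605, adjusted p = 0.0018) and by 0.23 after GC correction (adjusted p = 0.024). Exons of genes on the other strand cover 23.8% of the exons of SLC1A5, and whether counting used strand is not given in the sources used here. SLC1A4, its relative for alanine, serine and cysteine, had 1.67 and 2.06 FPKM in shJARID2 and 3.19 and 2.83 FPKM in shSCR, and fell as measured only (-0.49, GC-corrected -0.22), a call lost without shSCR replicate 1, shSCR replicate 2 or shJARID2 replicate 1.

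Other neutral amino acid carriers were called as measured and not after GC correction. SLC43A1, which carries leucine without sodium (LAT3), was at 4.92 and 4.93 FPKM in shJARID2, against 9.04 and 9.66 FPKM in shSCR (-0.80, GC-corrected -0.19, adjusted p = 0.064). SLC38A10 averaged 5.97 ± 0.866 FPKM in shJARID2, against 11.2 ± 1.13 FPKM in shSCR (SD, n = 2 each), a log2 fold change of -0.81 (GC-corrected -0.11). SLC36A4, a proline and tryptophan carrier, was higher, with 8.90 and 7.71 FPKM in shJARID2 and 5.30 and 4.51 FPKM in shSCR (0.66, GC-corrected 0.21). On lysosomes, SLC38A9, the arginine sensor of mTORC1, was higher (0.36, GC-corrected 0.00), while the glutamine exporter SLC38A7 (-0.37, GC-corrected 0.06) and the proton-coupled carrier SLC36A1 (-0.22, GC-corrected 0.03) were lower. SLC38A6 (0.34, GC-corrected -0.05) and SLC6A14 (0.49, GC-corrected 0.15) were the other rises. The calls of SLC36A1, SLC38A6, SLC38A7, SLC38A9 and SLC6A14 were each lost without 3 or more of the 4 libraries left out in turn.

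Of the carriers of osmolytes and glycine, SLC6A9 (chr1:43991500-44031467, - strand), the glycine importer GLYT1, had one of the larger falls among the carriers. It was at 1.48 and 1.57 FPKM in shJARID2, against 4.59 and 4.91 FPKM in shSCR, which correspond to 99 and 104 reads in shJARID2 and 366 and 409 reads in shSCR. The groups were far apart, and it fell by 1.19 (SE 0.0898, adjusted p = 0.0016) and by 0.54 after GC correction (adjusted p = 0.0086). The taurine importer SLC6A6 was much more abundant, at 33.0 and 36.8 FPKM in shJARID2 and 39.3 and 38.8 FPKM in shSCR, and did not pass (-0.16, adjusted p = 0.093). The creatine importer SLC6A8 did not pass either, with 1.29 and 1.72 FPKM in shJARID2 and 2.16 and 2.34 FPKM in shSCR (-0.38, adjusted p = 0.066).

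Nucleoside carriers fell or did not pass as measured, and the nucleobase carrier SLC43A3 rose. SLC43A3 (chr11:57406954-57427580, - strand), which carries purine nucleobases such as adenine, was at 22.4 and 19.4 FPKM in shJARID2, against 10.9 and 12.6 FPKM in shSCR. It rose by 0.78 (SE 0.104, adjusted p = 0.0046) and by 1.13 after GC correction (adjusted p = 0.0032), the largest fitted rise of a carrier under each of these fits. Without the added 1, the ratio of mean FPKM (shJARID2 over shSCR) was 1.78 for SLC43A3, below the 1.995 of SLC44A5. Exons of a gene on the same strand (AP000781.2) cover 29.9% of the exons of SLC43A3, so reads may have been assigned differently than by the gene alone. SLC29A1 (ENT1), the main equilibrative nucleoside carrier of many cells and the route of gemcitabine uptake, was at 48.6 and 49.4 FPKM in shJARID2, against 61.0 and 61.4 FPKM in shSCR. It fell by 0.31 (adjusted p = 0.0037) and was not called after GC correction (0.12, adjusted p = 0.054). SLC29A2 (ENT2) was at 6.76 and 7.49 FPKM in shJARID2, against 13.2 and 13.6 FPKM in shSCR (-0.83, adjusted p = 0.0018), and was still called lower after GC correction (-0.18, adjusted p = 0.039, or 0.072 with the replicate block). The lysosomal SLC29A3, with 2.10 and 2.08 FPKM in shJARID2 and 2.27 and 2.60 FPKM in shSCR, did not pass, and neither did SLC29A4 (0.611 and 0.914 FPKM in shJARID2, 1.33 and 1.47 FPKM in shSCR). Other genes cover 10.3% of the exons of SLC29A2 and 13.3% of those of SLC29A3.

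The 3 choline-family carriers were all called as measured and none after GC correction, beside shares over all tested genes of 59.7% and 44.2%. SLC44A2, the most abundant of them, was at 35.7 and 34.6 FPKM in shJARID2, against 45.9 and 44.8 FPKM in shSCR (-0.36, GC-corrected -0.02). SLC44A1, the better known choline carrier, was at 7.97 and 7.80 FPKM in shJARID2, against 5.59 and 5.05 FPKM in shSCR (0.49, GC-corrected 0.13). SLC44A5 was at 3.20 and 3.68 FPKM in shJARID2, against 1.78 and 1.67 FPKM in shSCR (0.70, GC-corrected 0.31). The inositol importer SLC5A3 rose as measured, with 18.3 and 18.4 FPKM in shJARID2 and 14.8 and 14.1 FPKM in shSCR (0.33, GC-corrected -0.09), but not without shSCR replicate 2 (0.29). SLC5A6, which imports biotin and pantothenate, was at 14.2 and 14.5 FPKM in shJARID2, against 15.3 and 16.3 FPKM in shSCR, and did not pass as measured (-0.13). It was called higher after GC correction (0.29, adjusted p = 0.0086).

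Both phosphate carriers were called in both fits, in opposite directions. SLC20A1 (chr2:112645857-112663827, + strand) was at 184 and 183 FPKM in shJARID2, against 134 and 130 FPKM in shSCR. It rose by 0.48 (SE 0.0410, adjusted p = 0.0019) and by 0.33 after GC correction (adjusted p = 0.0041). SLC20A2, the other sodium-phosphate importer, was at 3.73 and 4.08 FPKM in shJARID2, against 6.59 and 6.50 FPKM in shSCR. It fell by 0.62 (adjusted p = 0.0035) and by 0.51 after GC correction (adjusted p = 0.0062). The ratio of SLC20A1 to SLC20A2 was 49.4 and 44.9 in shJARID2, against 20.4 and 19.9 in shSCR.

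Bicarbonate carriers moved in opposite directions, with SLC4A2 lower and SLC4A7 higher in both fits. SLC4A2 (chr7:151057210-151076527, + strand; AE2), which exports bicarbonate in exchange for chloride and so acidifies the cytosol, was at 6.40 and 7.66 FPKM in shJARID2, against 20.5 and 23.7 FPKM in shSCR. It fell by 1.53 (SE 0.113, adjusted p = 0.0015), the largest fitted fall of a carrier as measured and, at 0.78, also after GC correction (adjusted p = 0.0034). Exons of CDK5 and another gene on the other strand cover 13.8% of its exons. SLC4A7 (chr3:27372721-27484420, - strand; NBCn1), which imports sodium with bicarbonate and so alkalinizes the cytosol, was at 37.6 and 37.0 FPKM in shJARID2, against 23.9 and 22.0 FPKM in shSCR. It rose by 0.68 (SE 0.0561, adjusted p = 0.0018) and by 0.42 after GC correction (adjusted p = 0.0036). SLC4A7 and SLC4A2 were near equal in control cells, with ratios of 5.87 and 4.83 in shJARID2, against 1.17 and 0.928 in shSCR. Their fold changes differed by 2.20 as measured and by 1.20 after GC correction. SLC4A3 (AE3), another chloride/bicarbonate exchanger, was low, at 0.516 and 0.491 FPKM (34 and 32 reads) in shJARID2, against 2.32 and 2.34 FPKM (183 and 193 reads) in shSCR. It fell by 1.15 as measured (adjusted p = 0.0025) and did not pass after GC correction (-0.39, adjusted p = 0.053). Without the added 1, the ratio of mean FPKM (shJARID2 over shSCR) was 0.216 for SLC4A3, below the 0.318 of SLC4A2. SLC4A11, a proton and ammonia carrier, was at 10.8 and 11.5 FPKM in shJARID2, against 13.4 and 14.4 FPKM in shSCR. It fell by 0.30 as measured (adjusted p = 0.018) and was called higher after GC correction (0.28, adjusted p = 0.011), and its fall was not called without shSCR replicate 2 or shJARID2 replicate 1.

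The sodium/proton exchangers held 5 tested members, of which 1 rose and 2 fell as measured, and 2 were called higher after GC correction. Shares over all tested genes were 28.0% higher and 31.6% lower as measured, and 22.7% higher after GC correction. SLC9A5 was lower as measured only, with 1.14 and 1.46 FPKM in shJARID2 and 2.17 and 2.23 FPKM in shSCR (-0.48, GC-corrected 0.06). The fall of SLC9A5 was not called without shSCR replicate 1, shSCR replicate 2 or shJARID2 replicate 1, and SLC9A5 shares 12% of its exons with other genes. The Golgi exchangers overlapped between groups. SLC9A7 had 6.78 and 7.10 FPKM in shJARID2 and 6.83 and 6.96 FPKM in shSCR, and SLC9A8 had 8.06 and 8.43 FPKM in shJARID2 and 8.77 and 8.18 FPKM in shSCR. SLC9A8 was called higher after GC correction only (0.27, adjusted p = 0.028).

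Chloride carriers were called for 3 of 4 as measured and for none after GC correction. The shares called over all tested genes were 59.7% and 44.2%, and a class this small was not tested against them. SLC12A2 (NKCC1), which imports chloride with sodium and potassium, was at 10.1 and 9.59 FPKM in shJARID2, against 6.49 and 6.28 FPKM in shSCR (0.55, adjusted p = 0.0029, GC-corrected 0.16). SLC12A4 (KCC1), which exports potassium with chloride, was at 3.50 and 4.28 FPKM in shJARID2, against 7.43 and 8.09 FPKM in shSCR (-0.84, adjusted p = 0.0041, GC-corrected -0.27). The ratio of the importer SLC12A2 to the exporter SLC12A4 was 2.88 and 2.24 in shJARID2, against 0.873 and 0.776 in shSCR. Their fold changes differed by 1.40 as measured and by 0.43 after GC correction. SLC12A9, whose substrate is debated, was at 3.12 and 3.37 FPKM in shJARID2, against 4.80 and 5.10 FPKM in shSCR (-0.49, GC-corrected 0.21), and did not pass without shSCR replicate 2 (-0.45).

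**Figure D3:**
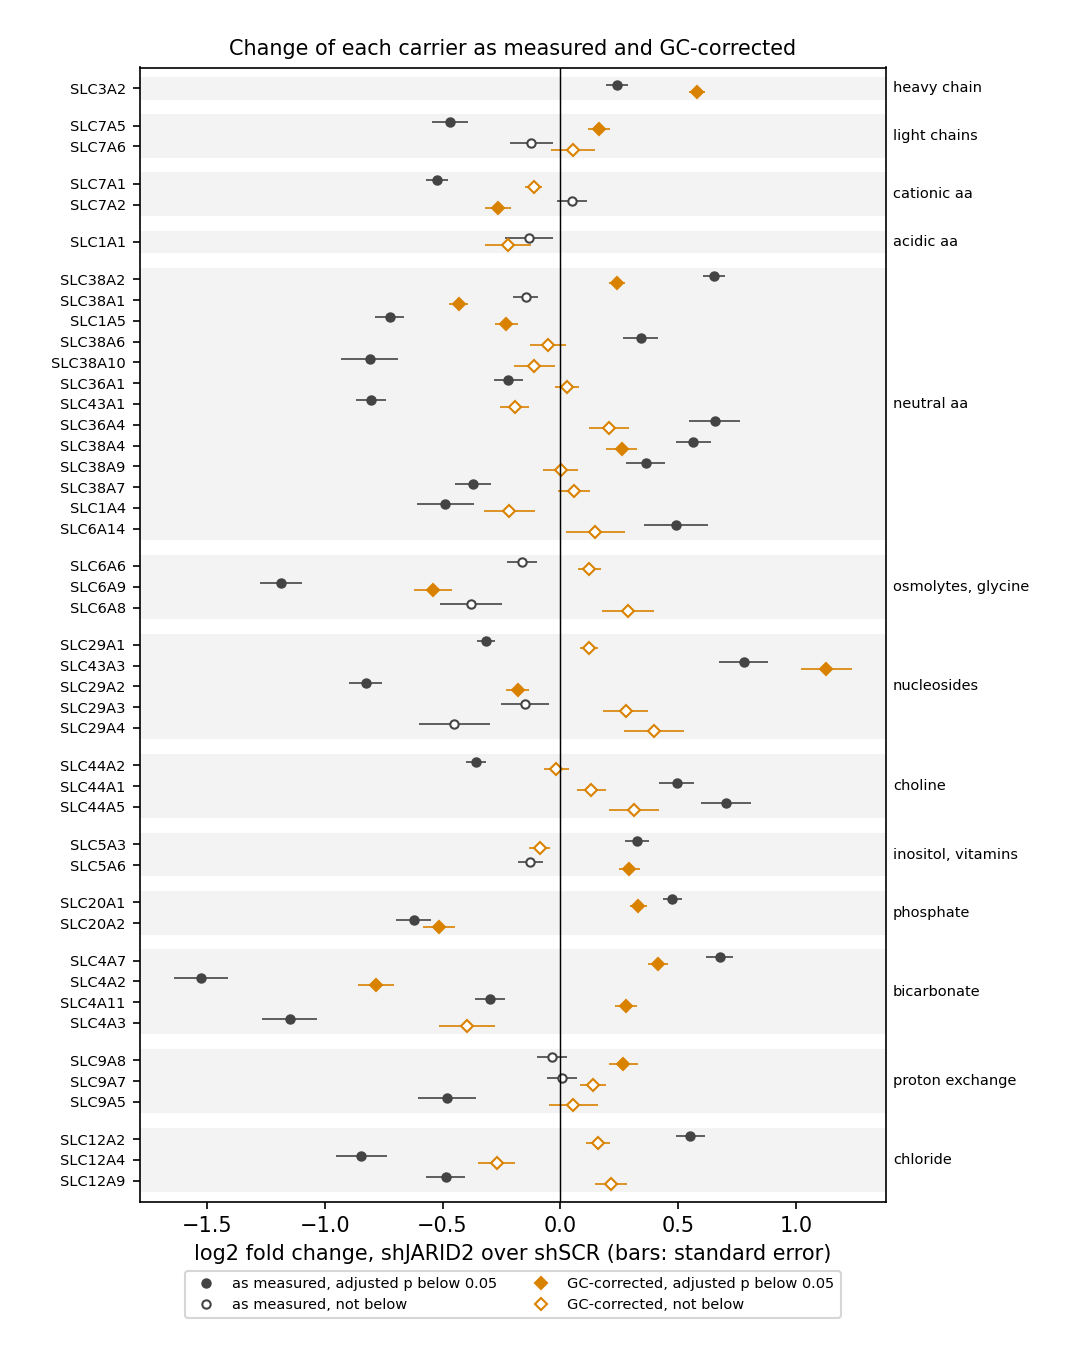
Log2 fold change of 44 of the 47 carriers (shJARID2 over shSCR) with its standard error, as measured (circles) and GC-corrected (diamonds), filled where the adjusted p was below 0.05. Both fits call the same direction for 11 of those drawn, among them SLC4A7 and SLC20A1 on the higher side and SLC4A2 and SLC20A2 on the lower side.

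**Figure D4:**
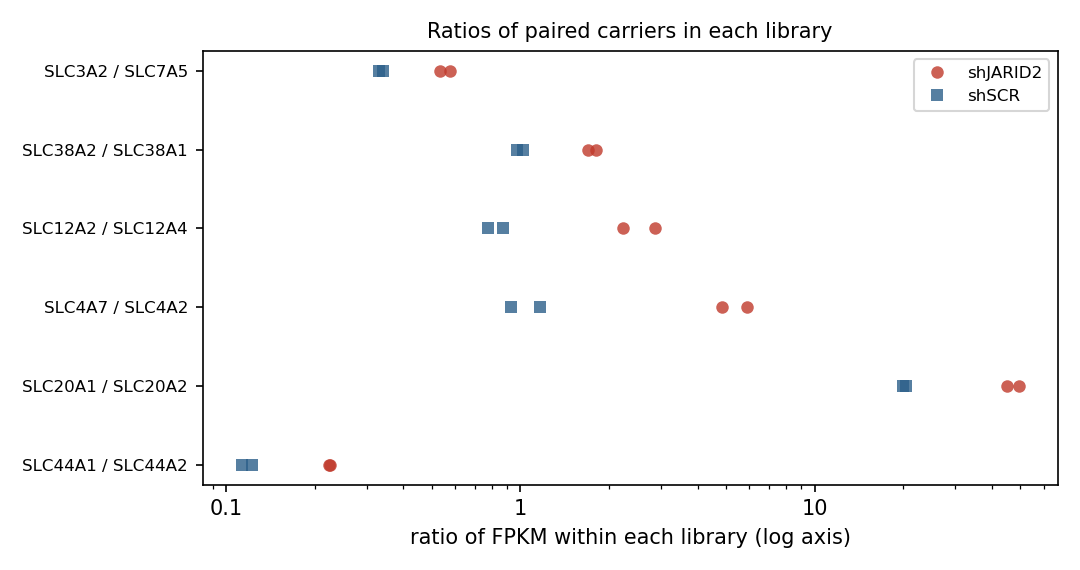
Ratio of the FPKM of paired carriers within each library, on a log axis, with red circles for the 2 shJARID2 libraries and blue squares for the 2 shSCR libraries; the pairs were chosen after their values were seen. Each of the 6 ratios is higher in both shJARID2 libraries, for SLC4A7 over SLC4A2 at 5.87 and 4.83 against 1.17 and 0.928. The ratios are not GC-corrected, and in each pair the first carrier has the lower transcript GC content. Each difference in fold change was smaller after GC correction and kept its sign. It went from 2.20 to 1.20 for SLC4A7 and SLC4A2, and from 0.85 to 0.15 for SLC44A1 and SLC44A2.

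Sequence before annotated start sites was searched. Windows are printed only for carriers with an E-box (CACGTG) that were called in the same direction by both fits, whose calls did not depend on the GC step. RefSeq windows (GRCh38.p14) were found for 38 of the 47 carriers, 60 windows in all since some genes have several starts, and the 250 bases before each start were searched on both strands. The E-box CACGTG, known as a binding sequence of MYC and MAX, was in 10 of the 60 windows (16.7%) and in 6.34% of all 35116 windows of that length. It reads the same on both strands. TGATGNAA, a core of the amino acid response element bound by ATF4, was in 1 of the 60 (SLC1A5) and in 3.14% of all windows, and CCAAT was in 15 (25.0%) and 32.0%. The motifs were chosen after the calls were seen, and a match is a description of these letters only. Among carriers called by both fits, the E-box was before a start of SLC20A1, which rose, and of SLC4A2 and SLC1A5, which fell. For SLC4A2 and SLC1A5 these are alternative starts inside the gene, 5432 bases (SLC4A2) and 1301 bases (SLC1A5) downstream of the annotated 5′ end. The windows printed for SLC4A2 and SLC1A5 thus lie within the gene and not before it, and the window of the first RefSeq start held no E-box in either gene. SLC20A1 has 1 window, whose start lies 82 bases downstream of the 5′ end in GENCODE. For each, the window whose E-box lies nearest its start is printed 5′ to 3′ on the gene's strand, with the E-box in capitals: SLC20A1 at chr2:112645689-112645938 (+ strand), SLC4A2 at chr7:151062392-151062641 (+ strand, 1 of 4 windows) and SLC1A5 at chr19:46787294-46787543 (- strand, 1 of 3 windows).
SLC20A1: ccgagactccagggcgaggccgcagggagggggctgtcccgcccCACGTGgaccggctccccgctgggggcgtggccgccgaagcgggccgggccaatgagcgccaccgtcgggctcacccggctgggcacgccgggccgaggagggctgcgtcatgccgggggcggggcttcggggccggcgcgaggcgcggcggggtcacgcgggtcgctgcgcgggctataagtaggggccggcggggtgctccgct
SLC4A2: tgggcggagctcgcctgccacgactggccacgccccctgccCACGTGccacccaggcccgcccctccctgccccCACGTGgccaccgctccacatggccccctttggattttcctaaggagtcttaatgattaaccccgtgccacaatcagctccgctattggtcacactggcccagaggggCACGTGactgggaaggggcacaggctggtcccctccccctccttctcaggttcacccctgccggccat
SLC1A5: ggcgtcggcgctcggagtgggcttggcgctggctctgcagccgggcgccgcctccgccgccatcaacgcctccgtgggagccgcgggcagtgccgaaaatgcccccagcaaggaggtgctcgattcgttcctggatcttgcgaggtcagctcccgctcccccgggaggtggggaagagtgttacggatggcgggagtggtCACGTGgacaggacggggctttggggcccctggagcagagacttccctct
The SLC4A2 window holds 3 E-boxes and the other windows 1 each. The distance from the nearest E-box to the start was 200 bases for SLC20A1, 62 for SLC4A2 and 44 for SLC1A5.

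Partner genes that power or control these carriers moved both ways, as did genes at large. The counts of partner genes stand beside shares over all tested genes of 28.0% higher and 31.6% lower as measured. After GC correction these shares were 22.7% higher and 21.4% lower. Of 4 tested genes of the sodium-potassium pump, which maintains the gradient that sodium-coupled carriers use, 1 rose and 3 fell. Its subunit ATP1B3 was at 54.1 and 51.8 FPKM in shJARID2, against 37.3 and 37.3 FPKM in shSCR (0.49, GC-corrected 0.21), and FXYD5 fell as measured only (-0.64, GC-corrected -0.16). Of 7 genes of the WNK pathway, whose kinases SPAK (STK39) and OSR1 (OXSR1) phosphorylate SLC12 carriers, 2 rose and 2 fell as measured. The GC-corrected counts were 1 higher and 5 lower. STK39 was at 4.27 and 5.19 FPKM in shJARID2, against 6.79 and 7.83 FPKM in shSCR (-0.54, GC-corrected -0.95). OXSR1 fell (-0.32, GC-corrected -0.51), and CAB39, which activates both kinases, rose as measured only (0.41, GC-corrected 0.11).

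Of 6 tested partners of the pH carriers, 2 rose and 3 fell. SLC9A3R1, the scaffold NHERF1, was at 16.3 and 18.0 FPKM in shJARID2, against 46.4 and 48.3 FPKM in shSCR (-1.42, GC-corrected -0.80). Its relative SLC9A3R2 fell as measured only (-0.73, GC-corrected 0.13), and CHP1, an obligate partner of sodium/proton exchangers, rose (0.41, GC-corrected 0.51). Among 9 enzymes of glutamine and glutamate metabolism, 2 rose and 4 fell as measured, with GC-corrected counts of 3 higher and 5 lower. PYCR1, an enzyme of proline synthesis (-1.13, GC-corrected -0.41), and GOT1 (-0.88, GC-corrected -0.76) fell. Exons of other genes cover 11.3% of the exons of SLC9A3R1, 19.3% of GOT1 and 29.7% of PYCR1, so these values are uncertain.

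Of 13 amino acid response genes, 3 rose and 6 fell as measured. The GC-corrected counts were 1 higher and 3 lower. DDIT4, an mTORC1 inhibitor, was at 8.29 and 7.74 FPKM in shJARID2, against 24.8 and 24.2 FPKM in shSCR (-1.50, GC-corrected -0.68), with 41.2% of its exons covered by its antisense gene. CHAC1 (-0.90, GC-corrected -0.20) and SHMT2 (-0.62, GC-corrected -0.08) fell as measured only. DDIT4, CHAC1 and SHMT2 were named for the size of their change as measured. The 1 gene of this list called higher after GC correction rose in both fits (0.46, GC-corrected 1.16). Its corrected change was larger in size than that of DDIT4. Of 18 genes of lysosomal amino acid sensing, 6 rose and 5 fell as measured. The GC-corrected counts were 6 higher and 4 lower. RRAGC, a Rag GTPase, averaged 13.0 ± 0.905 FPKM in shJARID2, against 5.12 ± 0.171 FPKM in shSCR (SD, n = 2 each), a log2 fold change of 1.20 (GC-corrected 0.84). RPTOR, which encodes the mTORC1 subunit raptor, was at 9.26 and 10.5 FPKM in shJARID2, against 21.3 and 22.3 FPKM in shSCR (-1.07, GC-corrected -0.58), with 22.9% of the exons of RRAGC covered by another gene, and LAMTOR2 fell as measured only (-0.77, GC-corrected -0.35). Over the 57 tested partner genes, 16 were higher and 23 lower as measured (GC-corrected 14 and 21). The shares over all tested genes were 28.0% higher and 31.6% lower as measured (GC-corrected 22.7% and 21.4%), and the partner lists were not tested against them. The number of partner genes that rose was 9 without shSCR replicate 1 and 8 without shSCR replicate 2.

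The remaining 65 carriers were under a mean of 1 FPKM and were not tested, and 49 of them were under 0.1 FPKM. SLC5A7, a choline carrier of neurons, was listed at 0 in all 4 libraries. The 6 at 0.5 FPKM or more were SLC44A3, SLC4A4, SLC1A3, SLC6A16, SLC3A1 and SLC4A8. Exons of other genes cover 54.6% of the exons of SLC3A1, so its value is uncertain. SLC44A3, just under the threshold at a mean of 0.900 FPKM, had 0.781 and 0.980 FPKM in shJARID2 and 0.765 and 1.08 FPKM in shSCR, and SLC29A4 lay just above it at 1.08 FPKM. No sodium/calcium exchanger (SLC8) reached the filter.

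Several of the smaller calls were lost when a library was left out. Each fit with a library left out also called a smaller share of all tested genes, so such losses are not particular to carriers. Of the 35 carriers called as measured, 22 kept the call when each library was left out in turn and 13 lost it at least once, all with the same direction, of which 12 are given here. Without shSCR replicate 2, 10 carriers rose and 12 fell. SLC7A5 (-0.43, adjusted p = 0.052), SLC12A9 (-0.45, adjusted p = 0.067) and SLC5A3 (0.29, adjusted p = 0.0505) lost it without shSCR replicate 2 only. SLC3A2 (0.23 to 0.25) lost it when either shSCR library was left out, and SLC4A11 (-0.26 to -0.25) without shSCR replicate 2 or shJARID2 replicate 1. SLC1A4 (-0.55 to -0.39), SLC38A7 (-0.39 to -0.34), SLC38A9 (0.29 to 0.36), SLC6A14 (0.35 to 0.52) and SLC9A5 (-0.50 to -0.38) lost it without any of shSCR replicates 1 and 2 and shJARID2 replicate 1. SLC38A6 (0.28 to 0.39) lost it without any of shSCR replicates 1 and 2 and shJARID2 replicate 2, and SLC36A1 (-0.26 to -0.18) without any library.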

How the data were processed

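The authors deposited FPKM values for each of the 4 RNA-seq libraries (85553 rows a file), and the 25133 rows carrying a gene symbol were analysed. The submitters' processing notes name Trimmomatic, HISAT2, SAMtools and featureCounts. How RNA was selected, strand, genome build and annotation were not given in the sources used here. The share of FPKM on rows lacking a symbol was 24.0% and 24.5% for shJARID2, against 21.4% and 21.1% for shSCR.

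Lengths, GC content (median over a gene's transcripts) and overlaps came from GENCODE release 29 (GRCh38), which all 112 carriers matched. With these lengths, 95.9% to 96.3% of values up to 20 reads lay within 0.05 of a whole read, which gave the depths. Replicates differed by more than sampling noise (chi-square per degree of freedom 3.28 in shJARID2 and 2.84 in shSCR).

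The 12455 genes with a mean of at least 1 FPKM entered limma 3.58.1 (R 4.3.3) as log2(FPKM + 1), fitting group alone and a trended prior variance. A count test had been planned, but since the files hold FPKM, limma was used. The GC correction subtracted, in each library, a loess smooth (span 0.3, degree 2) of deviations from gene means on GC content, for 12057 genes. Genes with 10% or more of their exons covered by other genes are marked uncertain. The fits were also run on simulated reads with known changes. Their spread and GC trend were not estimated from these libraries, so no support for the calls is drawn from that run. Alternatives were another pseudocount, filters, scalings, a replicate term, each library left out, the GC correction and limma-voom on recovered reads.

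Carriers, substrate classes and partner lists were chosen with earlier results of these data known. Every carrier with a mean of 1 FPKM or more may be named, those under it from 0.5 FPKM, and up to 3 called genes with the largest change per partner list. The pairs of carriers set as ratios and the promoter motifs were chosen after values were seen. Some genes are not reported here one by one, but stay in every count.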

Additional observations from a re-analysis of the deposited data

How the results depend on the processing

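Counts of carriers kept within 1.5 times of the 15 higher and 20 lower under another pseudocount, 2 other filters, 2 other scalings, limma-voom and the replicate block (14 higher and 18 lower). With the GC correction 7 carriers were lower, and 6 with the GC correction and replicate block. Over all genes, 2586 were lower with the GC correction and 2327 with the GC correction and replicate block. With each library left out, carriers called ranged from 10 to 14 higher and from 12 to 22 lower, all genes from 2168 to 3068 higher and from 2462 to 3763 lower and partner genes from 8 to 14 higher; the counts were lowest without shSCR replicate 2. Over all these alternatives JARID2 stayed called, from -1.45 to -1.15. Replicate numbers are shared between the groups by label only. The differences of replicate 1 minus 2 correlated at 0.029 between groups, so the numbers are not taken as pairs. As measured, the block changed the call of 3 carriers (SLC1A4, SLC36A1 and SLC6A14, all lost). Added to the GC correction, the block ended the calls of SLC38A4 (adjusted p = 0.064) and SLC29A2 (adjusted p = 0.072).

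The GC correction, alone and with the replicate block, reversed the sign of 18 carriers, of which 17 are given here. Corrected values were 0.054 for SLC7A6, 0.29 for SLC6A8, 0.056 for SLC9A5, -0.088 for SLC5A3, 0.27 for SLC9A8, 0.21 for SLC12A9, 0.28 for SLC4A11, -0.051 for SLC38A6, 0.12 for SLC6A6, 0.059 for SLC38A7, 0.16 for SLC7A5, 0.29 for SLC5A6, 0.12 for SLC29A1, 0.030 for SLC36A1, 0.40 for SLC29A4, -0.26 for SLC7A2 and 0.28 for SLC29A3. With each library left out, SLC9A8 ranged from -0.080 to 0.0097 (positive without shSCR replicate 1) and SLC9A7 from -0.021 to 0.037 (negative without shSCR replicate 1 or shJARID2 replicate 2). With no filter, 7 carriers lost their call. The cause of these differences was not tested. Carriers under 100 reads in a library, such as SLC4A3, carry the largest counting error.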
